A study of Mus musculus with 6 samples.

Results

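Ketone bodies are small fuels that one cell makes and another burns, and the 8 genes described here encode the enzymes that interconvert, activate and split them and the carriers that move them across membranes. The genes are *Bdh2*, *Bdh1*, *Oxct1*, *Acat1*, *Aacs*, *Slc16a1*, *Slc16a3* and *Slc16a7*. They were taken by gene name from the deposited table, 8 of its 54715 genes, and all 8 had enough reads to be tested. *Bdh2* is the gene edited in the study, and the others address whether the rest of the pathway moved with its loss.

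RNA-Seq was performed on 3 replicates of wild type (WT) ASCs and 3 replicates of *Bdh2*-/- ASCs. ASCs are mouse embryonic stem cells held in an advanced pluripotent state, and both genotypes came from the cross of a 129/sv female with a GOF/GFP male, so that both carry a GFP reporter of *Oct4* activity. Both were grown without feeder cells on fibronectin in the same serum-free medium with BMP4, activin A, leukemia inhibitory factor and CHIR99021. The knockout was made with CRISPR/Cas9 and expanded from single colonies, and the study continued with a line that carried a deletion on both alleles, so that the genotype effect cannot be told apart from other properties of a clone. Which clone each library came from is not stated in the labels, nor whether the replicates were separate cultures, and the p-values therefore measure the spread between these libraries only.

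During fasting the liver condenses acetyl-CoA to acetoacetyl-CoA and HMG-CoA, releases acetoacetate from it, and reduces most of that to 3-hydroxybutyrate. Other tissues take both up through monocarboxylate carriers, oxidize 3-hydroxybutyrate back to acetoacetate with a 3-hydroxybutyrate dehydrogenase, attach coenzyme A with OXCT1, and split the product with ACAT1. In the cytosol AACS activates acetoacetate instead for the synthesis of sterols and fatty acids. BDH1 is the mitochondrial dehydrogenase of the pathway, whereas BDH2 is a cytosolic short-chain dehydrogenase that has also been linked to the mammalian siderophore.

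The edit lies in exon 2 of *Bdh2* on chromosome 3 of GRCm38. Both sgRNAs match this exon once in the annotated transcript Bdh2-202, which has 10 exons. They are shown with the protospacer adjacent motif of the genome in capitals, and then as they lie in the gene, because the counts of *Bdh2* given below were taken over all exons of a gene edited here.
sgRNA1 (minus strand, chr3:135285628-135285647): tcccttgagcggcagctgtcAGG
sgRNA2 (plus strand, chr3:135285586-135285605): aggatccactatgggccgacTGG
Coding part of exon 2 (plus strand, chr3:135285566-135285667): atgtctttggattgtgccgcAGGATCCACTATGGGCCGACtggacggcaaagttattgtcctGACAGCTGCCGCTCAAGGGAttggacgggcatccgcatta
In the last sequence, 102 bases from the start codon of Bdh2-202 to the end of the exon, the capitals mark the parts that the sgRNAs match. Cas9 cuts 3 bases from the motif, which places the 2 cuts 28 bases apart. The start codon of a shorter annotated form lies 30 bases downstream of the first, within the sgRNA2 target. A count per gene does not show which bases of an exon were read, so the deletion itself cannot be seen in these data.

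Depth ranged from 18927748 to 28333541 gene counts per library, and 3 counts, the limit that a count of 0 allows, correspond to 0.106 to 0.158 CPM. Pluripotency markers summed to 7375 to 7492 CPM in WT ASCs and to 7470 to 7631 CPM in *Bdh2*-knockout ASCs, and of the 10 markers 5 were called higher and 1 lower. For this and the other marker counts, 41.7% of all tested genes were called (21% higher and 20.8% lower), and the genotypes did not overlap in 52.4%. The summed level of 12 primitive endoderm markers was 368 to 408 CPM in WT ASCs and 897 to 990 CPM in *Bdh2*-knockout ASCs, and all 12 rose. The summed level of 20 adult hepatocyte markers was 588, 362 and 55.7 CPM in replicates 1, 2 and 3 of WT ASCs against 46.6, 170 and 32.8 CPM in those of the knockouts. None of the 20 was at 0 in any library, with *Alb* counted between 208 and 6423 times. Of these markers, 18 were called lower in *Bdh2*-knockout ASCs, although 0 of the 20 had genotypes that did not overlap. Of 8 fibroblast markers, 6 could be tested and 2 were lower, with sums of 31.9 to 36.1 CPM in WT ASCs and 23.9 to 29.2 CPM in *Bdh2*-knockout ASCs. In bulk RNA, fewer cells of a type and less RNA per cell cannot be told apart, and where the reads of the hepatocyte markers came from cannot be seen. Because liver is rich in ketogenic enzymes, the hepatocyte markers are given beside each gene that follows them, and their part in those results was not tested beyond the fits named there.

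Levels were compared between genes as FPKM, which divides the counts by gene length and library total. In WT ASCs the order was *Slc16a1* (42.1 FPKM), *Slc16a3* (31.8), *Oxct1* (19.6), *Aacs* (15.7), *Bdh1* (14.7), *Acat1* (7.74), *Bdh2* (2.26) and *Slc16a7* (0.0545). Only *Aacs* and *Bdh1* overlapped as neighbours in this order. By this measure the edited gene was one of the lowest of the 8 even in WT cells, above 38.9% of all tested genes, whereas *Slc16a1* was above 92.0%. The listed length counts all annotated exon bases, 4250 for *Bdh2*, whose longest protein-coding transcript holds only 1123 overlapping stretches of 50 bases. These numbers were 3758 and 3356 for *Acat1* and 3888 and 3073 for *Bdh1*. The low place and rank of *Bdh2* therefore depend on the length used. In *Bdh2*-knockout ASCs *Slc16a3* (38.7 FPKM) and *Slc16a1* (38.0 FPKM) stood first and second and overlapped, and the remaining order was that of WT ASCs without an overlap between neighbours.

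**Figure D1:**
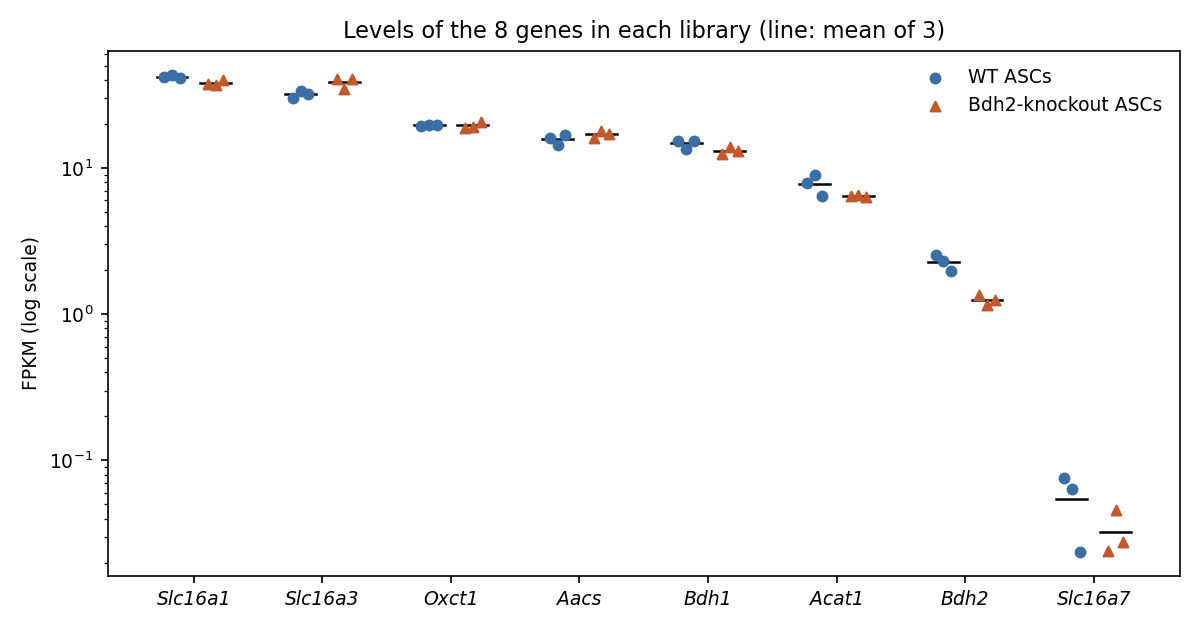
FPKM on a log scale for the 8 genes in 3 WT ASC (circles) and 3 *Bdh2*-knockout ASC (triangles) libraries, with a line at each mean. *Bdh2* lies at 1.97 to 2.52 FPKM in WT ASCs and at 1.15 to 1.36 FPKM in *Bdh2*-knockout ASCs. *Slc16a3* and *Slc16a1* change places between the genotypes, from 31.8 and 42.1 FPKM in WT ASCs to 38.7 and 38.0 FPKM in *Bdh2*-knockout ASCs.

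Of the 8 genes, 2 were higher (*Slc16a3* and *Aacs*) and 1 was lower (*Bdh2*) in *Bdh2*-knockout ASCs at an adjusted p under 0.05 by the quasi-likelihood test of edgeR, Benjamini-Hochberg adjusted across the 16758 genes tested. Over all tested genes 41.7% were called, 21% as higher and 20.8% as lower, so that 3 of 8 (37.5%) is close to the background. Likewise the genotypes did not overlap in 4 of the 8 genes, *Bdh2*, *Aacs*, *Slc16a1* and *Slc16a3*, while 52.4% of all tested genes had no overlap. The median log2 fold change of the 8 genes was -0.10, against -0.01 over all tested genes. For 5 of them the change was smaller in size than 0.235, the median size over all tested genes on the log2 scale. Scaling by library totals without TMM, which turned the share of higher genes among all calls from 50.3% to 38.0%, gave 1 higher and 4 lower of the 8.

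**Figure D2:**
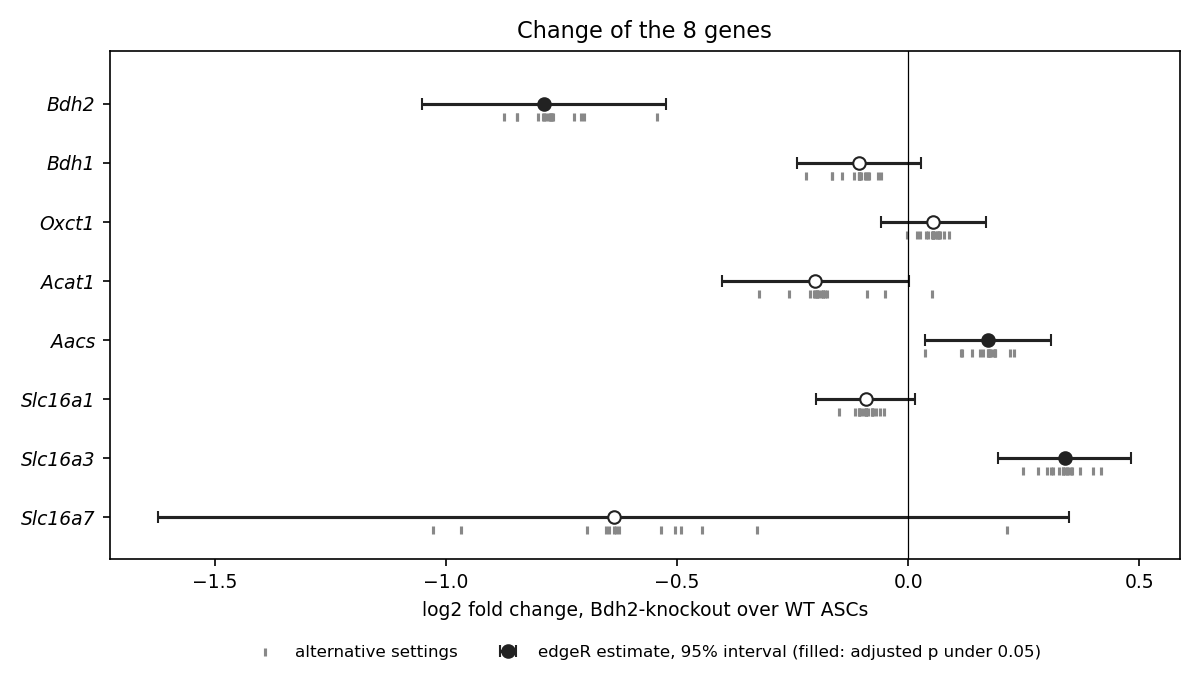
Log2 fold change of each gene, *Bdh2*-knockout over WT ASCs, with its 95% interval (circles, filled where the adjusted p is under 0.05) and the values under the alternative settings (grey ticks). *Bdh2*, *Bdh1*, *Aacs*, *Slc16a1* and *Slc16a3* keep their direction under every alternative run, and the interval of *Slc16a7* reaches from -1.62 to 0.35.

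Of the dehydrogenases, *Bdh2* was at 2.52, 2.29 and 1.97 FPKM in replicates 1, 2 and 3 of WT ASCs and at 1.36, 1.15 and 1.25 FPKM in those of the knockouts. Every knockout library was below every WT library, and transcript remained in all of them. The knockout level was 0.579 times the WT level (95% interval 0.483 to 0.696, log2 fold change -0.79, standard error (SE) 0.12, edgeR adjusted p = 2.46e-04), and 9.99% of all tested genes changed by more on the log2 scale. Within WT ASCs the 3 libraries ranked by *Bdh2* in the same order as by hepatocyte markers, whereas among the knockouts replicate 2 had the highest hepatocyte markers and the lowest *Bdh2*. With a hepatocyte score as a covariate the log2 fold change was -0.70, and over the 3 libraries with the lowest hepatocyte markers alone, 1 WT and 2 knockout libraries chosen after seeing the data, it was -0.54. That fit has no replication of WT ASCs and assumes that they vary like the knockouts, so its values are given with no test.

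*Bdh1*, on chromosome 16, was at 15.3, 13.5 and 15.4 FPKM in WT ASCs and at 12.4, 13.9 and 13.1 FPKM in *Bdh2*-knockout ASCs. The groups overlapped, and the log2 fold change of -0.11 (SE 0.06) did not pass (edgeR adjusted p = 0.188). Its 95% interval on the linear scale ran from 0.847 to 1.02, so a rise of *Bdh1* above 1.02 times WT was outside the interval. The direction was the same in every alternative run, and the change passed as lower with library totals (adjusted p = 0.0486). In the 3 libraries with the lowest hepatocyte markers, which hold 1 WT library and so no replication of WT ASCs, the log2 fold change was -0.22. The opposite-strand gene *Gm15743*, counted 13 to 24 times, covers 13.7% of the exon bases of *Bdh1*, and whether the counting used strand is not given in the sources used here.

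*Bdh1* was above *Bdh2* in both genotypes. The size of this gap in FPKM depends on the listed lengths, which exceed the transcript length more for *Bdh2* than for *Bdh1*. Its change between the genotypes does not depend on them. The ratio of their FPKM was 6.05, 5.88 and 7.79 in WT ASCs and 9.12, 12.1 and 10.5 in *Bdh2*-knockout ASCs. All knockout values exceeded all WT values, with the lower level of *Bdh2* as the denominator.

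Of the mitochondrial enzymes that use acetoacetate, *Oxct1*, whose product transfers coenzyme A from succinyl-CoA to acetoacetate, had the smallest change of the 8. It was at 19.3, 19.8 and 19.7 FPKM in WT ASCs and at 18.8, 19.04 and 20.7 FPKM in *Bdh2*-knockout ASCs. The groups overlapped throughout, with a log2 fold change of 0.05 (SE 0.05, edgeR adjusted p = 0.436) and a 95% interval of 0.959 to 1.12 times WT. The sign turned only with library totals, at a log2 fold change of -0.0036. *BC037032*, on the opposite strand, covers 12.6% of its exon bases and was counted 1 to 6 times.

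The close relatives *Oxct2a* and *Oxct2b*, known from testis, were counted 5 to 26 times and 7 to 25 times. *Oxct2b* did not pass (log2 fold change 0.80, edgeR adjusted p = 0.102), and *Oxct2a* was too low to be tested. Of the 50-base stretches of their transcripts, 41.7% and 53.9% occur in other annotated genes, including each other, so their reads could not be assigned with certainty.

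*Acat1*, the mitochondrial thiolase that splits acetoacetyl-CoA, was at 7.94, 8.89 and 6.39 FPKM in WT ASCs and at 6.47, 6.50 and 6.35 FPKM in *Bdh2*-knockout ASCs. WT ASC replicates 1 and 2 stood above all other libraries, while WT ASC replicate 3 lay within the knockout range. Its log2 fold change was -0.20 (SE 0.09) and did not pass (edgeR adjusted p = 0.103). Without WT ASC replicate 3 it passed, at -0.32 (edgeR adjusted p = 0.00264), and so it did with library totals and without a filter on low counts. The 2 high libraries were also the 2 with the highest hepatocyte markers. With the hepatocyte score as a covariate the log2 fold change was -0.05 (adjusted p = 0.742), and in the 3 libraries with the lowest markers it was 0.05. *Acat2*, the cytosolic thiolase on chromosome 17, was at 48.9 FPKM in both genotypes and had a log2 fold change of 0.06 (edgeR adjusted p = 0.443), which was -0.00027 with library totals. Of its 50-base stretches 45.9% occur in *Acat3* or *Tcp1*, so reads could be split between them.

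*Aacs*, which activates acetoacetate in the cytosol, was at 15.97, 14.4 and 16.7 FPKM in WT ASCs and at 16.1, 17.9 and 17.1 FPKM in *Bdh2*-knockout ASCs. On the FPKM scale the groups overlapped, and on the TMM-normalized scale they were apart by a narrow margin, 63.6 CPM in the highest WT library and 63.8 CPM in the lowest knockout library. Its log2 fold change was 0.17 (SE 0.06, edgeR adjusted p = 0.0417), a level 1.13 times that of WT (95% interval 1.03 to 1.24). This call was lost in 8 of the 15 alternatives with replicates in both groups. Leaving out WT ASC replicate 1 (adjusted p = 0.0808) or 2 (0.180), or *Bdh2*-knockout ASC replicate 2 (0.143) or 3 (0.0770), each ended it. In the 3 libraries with the lowest hepatocyte markers the log2 fold change was 0.04.

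Around AACS in the cytosol, *Hmgcs1*, which encodes the HMG-CoA synthase of cholesterol synthesis, rose (log2 fold change 0.21, SE 0.05, edgeR adjusted p = 0.00424). Its level went from 34.0, 35.3 and 35.2 FPKM in WT ASCs to 39.4, 37.2 and 39.9 FPKM in *Bdh2*-knockout ASCs without overlap. The call was not reached with the hepatocyte covariate (adjusted p = 0.0551), and the opposite-strand gene *Gm48342* covers 12.1% of its exon bases. Of the 4 tested genes in the list of *Oxct1* relatives and acyl-CoA synthetases, 2 were lower, 50% beside the 41.7% called among all tested genes. *Acss1*, the mitochondrial form, went from 6.04, 5.85 and 5.76 FPKM to 3.66, 4.02 and 3.905 FPKM (log2 fold change -0.55, SE 0.07, edgeR adjusted p = 3.62e-05). *Acss2*, the form of cytosol and nucleus, had a log2 fold change of -0.66 (SE 0.10, edgeR adjusted p = 2.37e-04). *Acss3* did not pass (adjusted p = 0.280).

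Of the carriers, *Slc16a3* showed the clearest increase. It encodes MCT4, which mainly exports lactate. It was at 30.2, 33.3 and 31.9 FPKM in WT ASCs and at 40.6, 34.6 and 40.8 FPKM in *Bdh2*-knockout ASCs. All knockout libraries were above all WT libraries, with *Bdh2*-knockout ASC replicate 2 the nearest to them. The log2 fold change was 0.34 (SE 0.07, edgeR adjusted p = 0.00135), which is 1.26 times WT (95% interval 1.14 to 1.40), and 35.8% of all tested genes changed by more. It stayed between 0.25 and 0.42 under the 15 alternatives with replicates in both groups and lost its call in 1 of them, the test against a fold change of 1.2 (adjusted p = 0.195). In the 3 libraries with the lowest hepatocyte markers it was 0.40.

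*Slc16a1* encodes MCT1, which carries lactate, pyruvate and ketone bodies in both directions. It was at 41.5, 43.4 and 41.4 FPKM in WT ASCs and at 37.7, 36.6 and 39.6 FPKM in *Bdh2*-knockout ASCs. The groups did not overlap, but the log2 fold change of -0.09 (SE 0.05) did not pass (edgeR adjusted p = 0.154), and its 95% interval was 0.871 to 1.01 times WT. It passed as lower only with library totals, at -0.15 (adjusted p = 0.0269).

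The balance between these carriers is given as a ratio, for which no test was run. The FPKM of *Slc16a3* divided by that of *Slc16a1* was 0.728, 0.767 and 0.770 in WT ASCs and 1.08, 0.945 and 1.03 in *Bdh2*-knockout ASCs, with no overlap. The ratio is free of the scaling between libraries, since both genes were read in the same one. The summed FPKM of the 3 carriers was 71.8, 76.8 and 73.3 in WT ASCs and 78.3, 71.2 and 80.5 in *Bdh2*-knockout ASCs, so the groups overlapped in the total. *Slc16a3* made up 43.0% ± 0.779 (SD, n = 3) of this sum in WT ASCs and 50.4% ± 1.66 (SD, n = 3) in *Bdh2*-knockout ASCs.

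*Slc16a7*, which encodes the high-affinity carrier MCT2, was hardly expressed. It had 17, 15 and 7 counts in WT ASCs against 8, 15 and 8 in the knockouts, and at most 0.106% of the summed FPKM of the 3 carriers was its own. The groups overlapped, and the log2 fold change of -0.64 (SE 0.46, edgeR adjusted p = 0.282) had a 95% interval of 0.325 to 1.27 times WT, so that a change was not detectable at this depth. WT ASC replicates 1 and 2 and *Bdh2*-knockout ASC replicate 2, the 3 libraries with the highest hepatocyte markers, were also its 3 highest. With the hepatocyte covariate its sign turned, at 0.21 (edgeR adjusted p = 0.776).

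Genes for proteins that accompany the carriers to the membrane were expressed, *Bsg* at a higher level than *Emb*. *Bsg* encodes basigin, the partner of MCT1 and MCT4, and was at 278, 302 and 286 FPKM in WT ASCs and at 257, 237 and 258 FPKM in *Bdh2*-knockout ASCs. It fell without overlap by 0.15 on the log2 scale (SE 0.05, edgeR adjusted p = 0.0348). The call was lost when WT ASC replicate 2 (adjusted p = 0.125) or any knockout replicate was left out (0.0658, 0.184 and 0.0835 for replicates 1, 2 and 3). The replicate block (0.0709), the fit without a filter on low counts (0.0657) and the test against a fold change of 1.2 ended it too. *Emb* encodes embigin, the partner of MCT2, and rose (log2 fold change 0.27, SE 0.06, edgeR adjusted p = 0.00180), from 15.6 to 18.1 FPKM, with 9.93% of its exon bases covered by *Gm17509* on the opposite strand. Among other carriers of the family *Slc16a6*, which encodes MCT7, rose from 3.64 to 4.58 FPKM (log2 fold change 0.39, SE 0.10, edgeR adjusted p = 0.00718), with an adjusted p of 0.0564 under the hepatocyte covariate. Exons of *Amz2*, *Arsg* and another gene cover 23.5% of the exon bases of *Slc16a6*. *Slc16a11* fell, with a log2 fold change of -0.65 (SE 0.20, adjusted p = 0.0178), at 1.02 FPKM in WT ASCs. Its call was lost with DESeq2 (adjusted p = 0.0782), with the hepatocyte covariate (0.119) and on leaving out replicate 2 of WT ASCs (0.0760) or replicate 1 or 3 of the knockouts (0.050 and 0.0596). In all, 2 of the 6 tested genes of this list were higher and 2 were lower, 66.7% beside the 41.7% of all tested genes. The sodium-coupled carriers *Slc5a8* and *Slc5a12* had no more than 8 counts per library and were not tested.

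**Figure D3:**
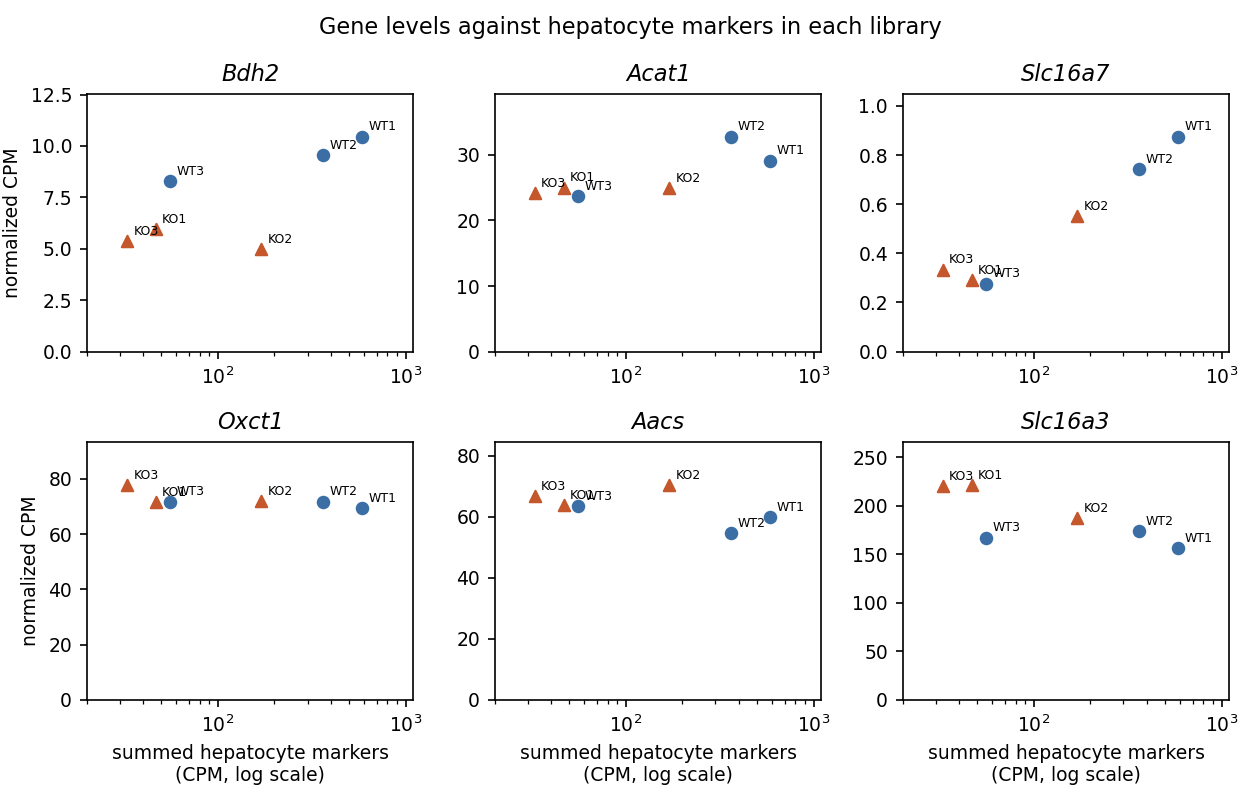
Normalized CPM of 6 genes (linear axes from 0) against the summed CPM of 20 hepatocyte markers (log axis) in each library, with WT ASCs as circles and *Bdh2*-knockout ASCs as triangles. *Slc16a7* is highest in the 3 libraries with the highest markers, and *Acat1* is raised only in WT ASC replicates 1 and 2.

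Of the genes listed for ketone body synthesis, *Hmgcll1*, which encodes a lyase outside mitochondria, was at 0.41, 0.47 and 0.55 FPKM in WT ASCs and at 0.71, 0.58 and 0.67 FPKM in *Bdh2*-knockout ASCs (log2 fold change 0.50, SE 0.18, edgeR adjusted p = 0.0361). DESeq2 did not call it (adjusted p = 0.0966). In edgeR the call was lost with the hepatocyte covariate (0.287), with library totals (0.0569) and against a fold change of 1.2 (0.172). Leaving out replicate 1 or 2 of WT ASCs (0.121 and 0.0854) or replicate 1 or 3 of the knockouts (0.108 and 0.0798) ended it too.

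Receptors that sense 3-hydroxybutyrate, lactate and short-chain acids were at or below the smallest level the depth can show. *Hcar1*, *Ffar2* and *Ffar3* had no more than 3 counts per library and *Hcar2* 0 in all 6, which allows up to 0.106 to 0.158 CPM by counting error alone. None of the 4 could be tested.

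Of 10 regulators of ketone body synthesis and of the fatty acid supply for it, 7 could be tested, and 2 rose and 4 fell, 85.7% beside the 41.7% of all tested genes. *Fgf21*, a hormone of fasting, had 15, 20 and 25 counts in WT ASCs against 9, 7 and 5 in the knockouts (log2 fold change -1.77, SE 0.35, edgeR adjusted p = 0.00142). *Sirt3*, a mitochondrial deacetylase that acts on enzymes of this pathway, fell by 0.49 on the log2 scale (SE 0.08, edgeR adjusted p = 4.29e-04). *Foxa2*, a transcription factor of liver and also of endoderm, had 2, 10 and 8 counts in WT ASCs against 60, 62 and 35 in the knockouts (log2 fold change 2.66, SE 0.38, edgeR adjusted p = 1.40e-04), beside the rise of all 12 primitive endoderm markers. Among the carnitine palmitoyltransferases, *Cpt1a* fell (log2 fold change -0.23, adjusted p = 0.0135), *Cpt1c* rose (0.32, adjusted p = 0.00163) and *Cpt2* fell (-0.21, adjusted p = 0.0326), all from edgeR. The call of *Cpt2* was lost with DESeq2 (adjusted p = 0.159) and when WT ASC replicate 1 or 3 or any knockout replicate was left out. In edgeR it was also lost with the replicate block (0.0633), the hepatocyte covariate (0.0821) and no filter on low counts (0.0892). The call of *Cpt1a* was lost without *Bdh2*-knockout ASC replicate 2 (0.0544). None of the 3 passed the test against a fold change of 1.2. *Ppara* was counted at most 12 times and *Ppargc1a* at most 3 times.

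Leucine breakdown also ends in HMG-CoA and acetoacetate. All 12 of its listed genes could be tested, and 3 were lower, so that 25% were called beside 41.7% of all tested genes. These were *Ppm1k*, the phosphatase that activates the branched-chain ketoacid dehydrogenase (log2 fold change -0.63, SE 0.12, edgeR adjusted p = 0.00137), *Dbt*, a subunit of that complex (-0.26, SE 0.05, edgeR adjusted p = 0.00105), and *Auh*, a hydratase further down (-0.28, SE 0.07, edgeR adjusted p = 0.00802). The call of *Auh* was lost without *Bdh2*-knockout ASC replicate 3 (adjusted p = 0.0534). The 9 others, among them the abundant transaminase *Bcat1*, did not pass, and the median of the list was -0.08 on the log2 scale.

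Lactate and pyruvate are cargo of the same carriers. Of 10 tested genes 4 were lower and the 6 others did not pass, so that 40% were called beside 41.7% of all tested genes. *Ldhb* fell from 119, 113 and 118 FPKM in WT ASCs to 72.3, 71.3 and 76.6 FPKM in *Bdh2*-knockout ASCs (log2 fold change -0.61, SE 0.05, edgeR adjusted p = 1.44e-06). Of its 50-base stretches 27.0% occur in *Gm5514* as well. *Ldha*, the more abundant lactate dehydrogenase, was at 712, 752 and 726 FPKM in WT ASCs and at 750, 661 and 747 FPKM in *Bdh2*-knockout ASCs and did not pass (0.04, adjusted p = 0.606). Its sign turned with library totals (-0.02) and with the hepatocyte covariate (-0.02). The FPKM ratio of *Ldha* to *Ldhb* was 5.99 to 6.66 in WT ASCs and 9.28 to 10.4 in *Bdh2*-knockout ASCs. *Ldhd*, which oxidizes D-lactate, fell by 1.07 on the log2 scale (SE 0.19, edgeR adjusted p = 7.14e-04), and the kinases of pyruvate dehydrogenase *Pdk1* (-0.28, adjusted p = 9.90e-04) and *Pdk2* (-0.95, adjusted p = 5.48e-04) fell as well, while *Pdk3* and *Pdk4* did not pass.

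Over the 55 genes of these lists, 45 could be tested, 6 were higher and 17 were lower, 51.1% beside the background of 41.7% given above. Their median log2 fold change was -0.15. With the hepatocyte covariate 3 were higher and 15 were lower.

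**Figure D4:**
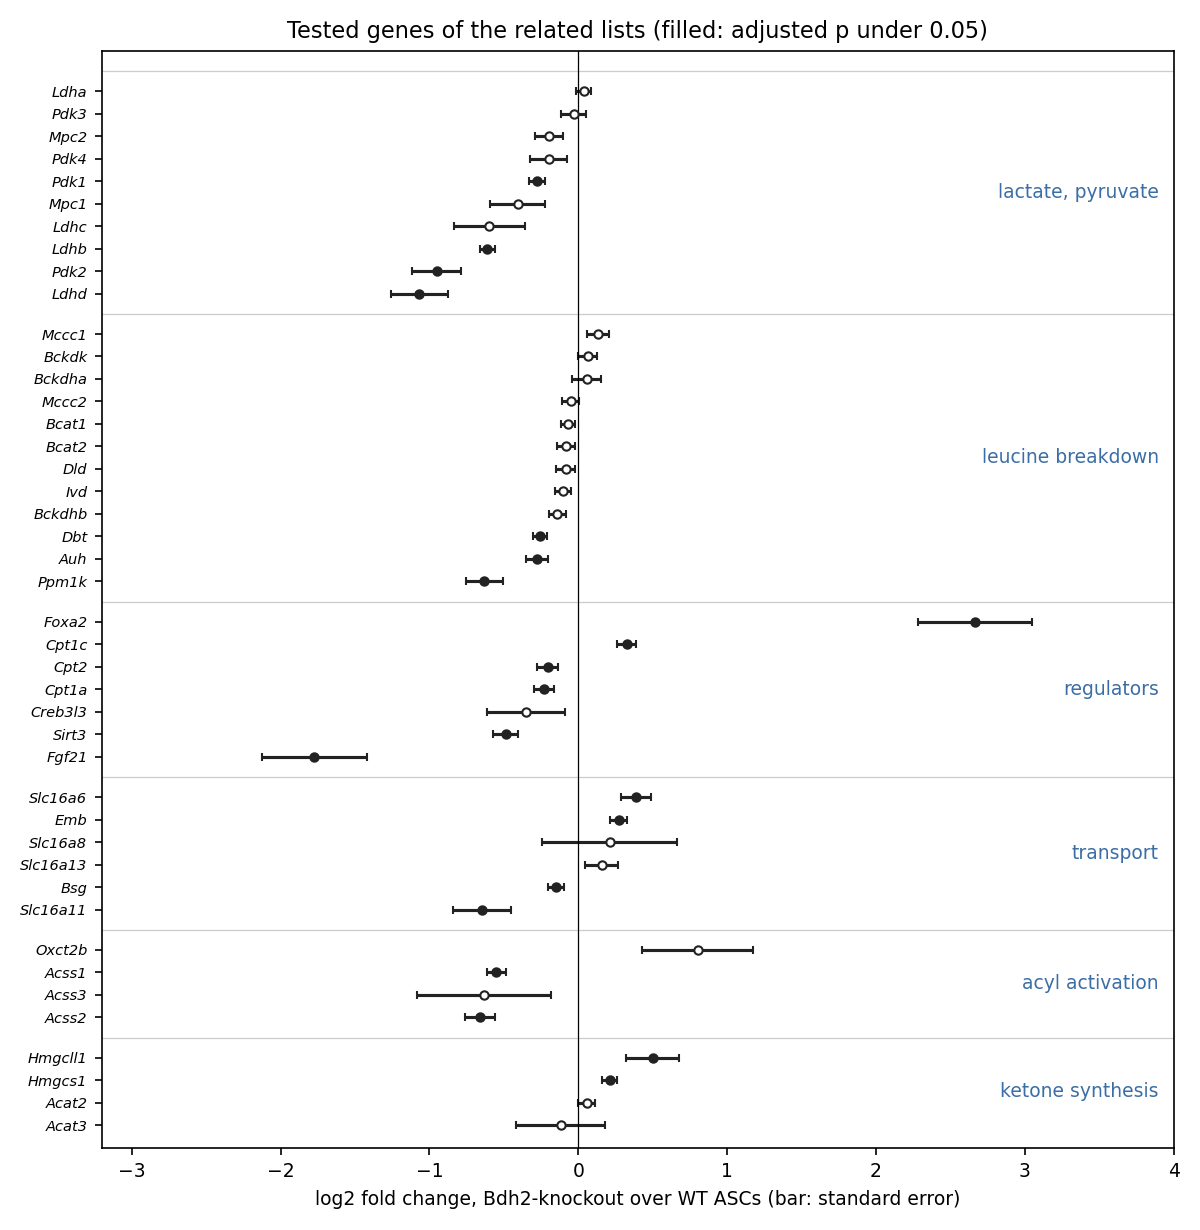
Log2 fold change, *Bdh2*-knockout over WT ASCs, with its standard error for tested genes of the related lists, filled where the adjusted p is under 0.05. In the leucine and the lactate and pyruvate lists the called genes lie to the left of 0, and *Foxa2* (2.66) and *Fgf21* (-1.77) are the ends of the plot.

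At the edited locus, 15 other genes lie within 200 kb of *Bdh2*, of which 8 could be tested, 2 were higher and 3 were lower, beside 21% higher and 20.8% lower among all tested genes. *Cenpe*, which encodes a kinesin of the kinetochore and lies before *Bdh2*, rose (log2 fold change 0.24, SE 0.05, edgeR adjusted p = 0.00109). On the other side, *Slc9b2*, the nearest gene at 3.27 kb, did not pass (0.11, adjusted p = 0.594), *Slc9b1*, a sodium/proton exchanger gene, fell (-0.25, SE 0.06, adjusted p = 0.00393) and *Cisd2*, which encodes an iron-sulfur protein, rose (0.32, SE 0.07, adjusted p = 0.00253), all from edgeR. *Manba*, for lysosomal beta-mannosidase, fell by 0.36 on the log2 scale (SE 0.05, edgeR adjusted p = 6.98e-05). The third lower gene, *2810428J06Rik*, was counted 6 to 21 times. Its call did not survive leaving out replicate 1 of WT ASCs (edgeR adjusted p = 0.167) or replicate 1 or 3 of the knockouts (0.127 and 0.0893). It was also lost with DESeq2 (adjusted p = 0.112) and in edgeR with the hepatocyte covariate (0.252) and against a fold change of 1.2 (0.0871).

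**Figure D5:**
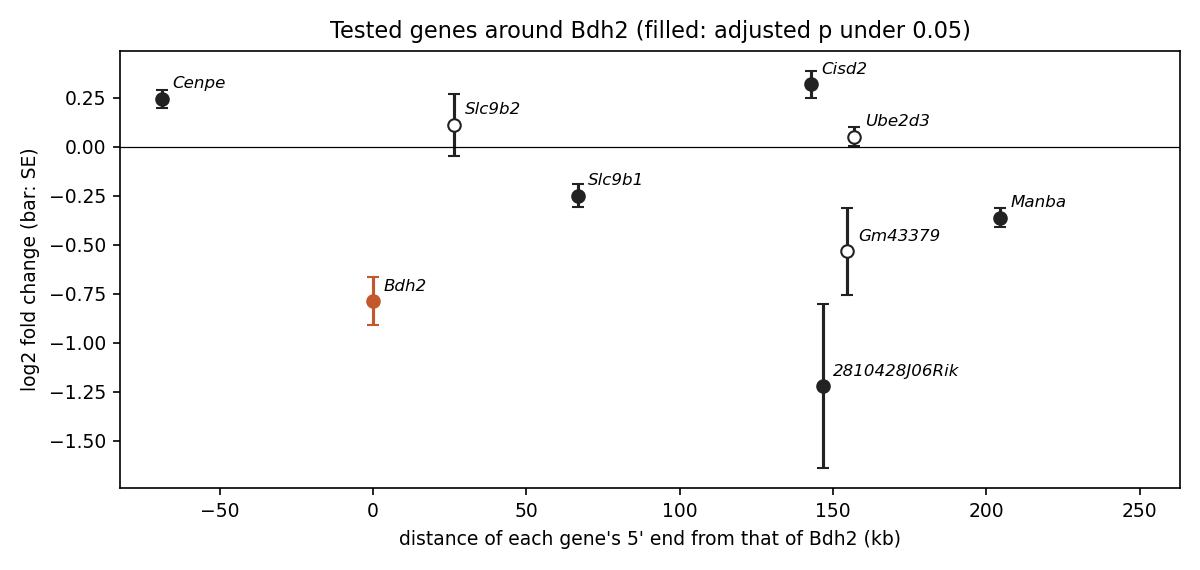
Log2 fold change with its standard error of *Bdh2* (orange) and the 8 tested genes within 200 kb, plotted by the distance of their 5′ ends in kb, filled where the adjusted p is under 0.05. Of the called genes, *Cenpe* and *Cisd2* lie above 0, and *Bdh2*, *Slc9b1*, *Manba* and *2810428J06Rik* below it.

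In the 2 Mb on either side of each of the 8 genes the median log2 fold change of the other tested genes lay between -0.07 (30 genes around *Slc16a7*) and 0.12 (48 genes around *Bdh1*). The surroundings of *Bdh1* held 17 higher and 3 lower genes, and the 493 other tested genes of chromosome 16 had a median of 0.19, so that *Bdh1* at -0.11 lay below its surroundings. Around *Slc16a3* the median of 79 genes was 0.06, with 21 higher and 11 lower.

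The genes whose normalized levels lay nearest to those of *Bdh2* over the 6 libraries, each taken relative to its WT mean, were *Bcl2l14*, *Prkra* and *Gm42732*, with root mean square differences of 0.0440, 0.0507 and 0.0632 on the log2 scale among 12717 genes compared. Their log2 fold changes were -0.86, -0.77 and -0.83, which the choice itself brings near to that of *Bdh2*, since the knockout libraries entered it.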

How the data were processed

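Per the methods, reads were trimmed by the authors, aligned to GRCm38 by HISAT2 2.0.5 and assigned to genes by featureCounts. They deposited raw counts per gene with gene lengths and positions. The annotation release, the strand setting and the handling of multi-mapped reads are not given in the sources used here, and RNA extraction is described differently in the labels (Trizol) and the methods (a column kit). Library totals ranged from 18927748 to 28333541 counts, and the floors of 3 counts cover counting error only.

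The model of genotype used the quasi-likelihood functions of edgeR 4.0.16 under R 4.3.3, after filterByExpr and TMM scaling, and p-values were Benjamini-Hochberg adjusted over 16758 genes, with a threshold of 0.05. Standard errors and 95% intervals come from that fit and include the spread between libraries. FPKM was computed from counts, listed lengths and library totals. The functions were tested on simulated counts. Alternatives were DESeq2 1.42.0, limma 3.58.1 (voom), other scalings and filters, a replicate block, a hepatocyte score as covariate, a test against a fold change of 1.2, each library left out, and, chosen after seeing the data, the 3 libraries with the lowest hepatocyte markers.

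The text names the 8 genes, genes of 7 related lists, genes within 200 kb of *Bdh2* and the 3 genes most like it. The genes and lists were chosen with earlier results of these data known. GENCODE M21 holds 99.4% of the gene identifiers, and its start and end are those of the table for all 8 genes. Protein sequences were not used here, and some genes of the lists are not reported here. Python 3.11.15, pandas 2.3.3 and matplotlib 3.10.9 made tables and plots.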

Additional observations from a re-analysis of the deposited data

How the results depend on the processing

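*Bdh2* kept its direction and call under the 15 alternatives with replicates in both groups (log2 fold change from -0.88 to -0.70). With library totals in place of TMM, *Bdh1* (-0.16), *Acat1* (-0.26) and *Slc16a1* (-0.15) passed as lower, *Aacs* (0.11) no longer passed, *Oxct1* turned (-0.0036), as did *Acat2* (-0.00027) and *Ldha* (-0.022), and 1 of the 8 genes was higher and 4 were lower. Without a filter on low counts *Acat1* passed (-0.19), which made 2 lower. With the hepatocyte covariate *Aacs* did not pass (0.15), *Slc16a7* turned (0.21), as did *Ldha* (-0.025), 1 of the 8 was higher, and 3 list genes were higher. In the test against a fold change of 1.2, *Aacs* (0.17) and *Slc16a3* (0.34) did not pass, so that 0 of the 8 were higher, and 1 list gene was higher and 9 were lower, 0 neighbours of *Bdh2* were higher and 1 was lower, and over all genes 1185 were higher and 1272 lower. The 3 libraries with the lowest hepatocyte markers hold 1 WT and 2 knockout libraries and allow no call, and the log2 fold changes there were -0.54 for *Bdh2*, -0.22 for *Bdh1*, 0.052 for *Acat1*, whose sign turned, and 0.036 for *Aacs*.

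With single libraries left out, the log2 fold change of *Aacs* ranged from 0.12 to 0.23 and that of *Acat1* from -0.32 to -0.088. The number of the 8 genes called ranged from 1 to 2 for higher and from 1 to 2 for lower. In *Bdh2*-knockout ASCs 0 to 2 of the 8 changed place in the FPKM order, *Slc16a1* and *Slc16a3* changing places without replicate 1. The causes were not tested.

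Whether the replicate numbers pair the samples cannot be decided from 3 libraries per group. Deviations of same-numbered replicates 1, 2 and 3 correlated with r of -0.154, 0.0995 and 0.245. WT ASC replicates 2 and 3 correlated best with the same-numbered knockout, whereas WT ASC replicate 1 correlated best with *Bdh2*-knockout ASC replicate 2 (0.312). With the replicate block *Aacs* was at 0.17 (adjusted p = 0.0589 from edgeR), which left 1 of the 8 higher, and 6452 genes were called in all. Depth limits *Slc16a7* and the receptors.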
